A study of Mus musculus with 4 samples.

Results

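The CXC chemokines are small secreted proteins that attract leukocytes, and 9 of them were followed here from the cells that held their messages to the cells that carried their receptors. The members were Cxcl1, Cxcl2, Cxcl3, Cxcl9, Cxcl10, Cxcl12, Cxcl13, Cxcl14 and Cxcl16, taken by symbol from the feature table, where they made up 9 of 31055 features. The cells were viable cells sorted from dissociated lung tumors of 4 female mice, 2 in each of 2 cohorts, and were profiled by droplet single-cell RNA sequencing of the 3′ ends of transcripts. All 4 mice carried the alleles Lkb1XTR/XTR and Rosa26LSL-tdTomato on a mixed background. Intratracheal Lenti-Cre started the tumors, switched on the tdTomato reporter and inactivated Lkb1 in the cells it reached, and tumors grew for 16 weeks. Tamoxifen (4 mg doses) was then given to both cohorts for 2 weeks. The Restored mice also carried a FLPo-ERT2 recombinase, which tamoxifen activates to turn Lkb1 back on, and the Non-Restored mice did not.

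The deposited matrix pooled the mice, and its cells carried numbers only, with no map to mice used here, so Restored and Non-Restored tumors were not compared. The matrix counted as 1 sample with no replicate. Levels are given as UMIs (unique molecular identifiers, each standing for 1 captured transcript) per 1000000 UMIs of a cell class (CPM), with exact Poisson 95% intervals. Shares of cells have exact Clopper-Pearson 95% intervals where they are given, and ratios have exact conditional 95% intervals. All of these cover counting error only, and no p-value was computed. A difference between classes can also reflect unequal numbers of cells from the 4 mice. The share of a gene's UMIs held by a class depends on its level and on the number of cells captured. Captured cells are those that survived dissociation and the viability sort, so these shares are not amounts in the tumor.

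Chemokines act through G protein-coupled receptors, and the pairing of ligand and receptor sets which cells come. Cxcl1, Cxcl2 and Cxcl3 share the receptor Cxcr2 and recruit neutrophils, and their genes are classical targets of the inflammatory transcription factor NF-kB. Cxcl9 and Cxcl10 are induced by interferons and attract activated T cells and NK cells through Cxcr3. Cxcl12 holds and guides leukocytes through Cxcr4 and is scavenged by Ackr3, Cxcl13 organizes B cells through Cxcr5, and Cxcl16 is a membrane-anchored ligand of Cxcr6. The receptor of Cxcl14 is not settled.

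The genes of 6 of the 9 members lay on mouse chromosome 5 (mm10). Cxcl3 (ENSMUSG00000029379, 90786103 to 90789600), Cxcl1 (ENSMUSG00000029380, 90891241 to 90893115) and Cxcl2 (ENSMUSG00000058427, 90903871 to 90905938) stood in a row on the plus strand. Cxcl9 (ENSMUSG00000029417, 92321347 to 92328079) and Cxcl10 (ENSMUSG00000034855, 92346638 to 92348889) were neighbors on the minus strand, and Cxcl13 (ENSMUSG00000023078, 95956951 to 95961068) was on the plus strand. Cxcl12 (ENSMUSG00000061353) was on chromosome 6 from 117168535 to 117181367, Cxcl14 (ENSMUSG00000021508) on chromosome 13 from 56288643 to 56296551, and Cxcl16 (ENSMUSG00000018920) on chromosome 11 from 70453983 to 70459984.

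Promoters from RefSeq (GRCm38.p6) were matched for 8 of the 9 members, all but Cxcl16, and the 250 bases before the RefSeq start were searched on both strands for 2 motifs chosen after these genes were known. The letters GGAATTTCC, a form of the NF-kB site, were found in 4 of the 8 and in 94 of 32851 promoters overall (0.286%). The 70-base windows around them are shown because Cxcl1, Cxcl2 and Cxcl3 are followed together in the macrophages and Cxcl10 is both an NF-kB and an interferon target. Each is written 5′ to 3′ on the strand of its gene, capitals mark the match, and the Cxcl10 match reads as the reverse complement. The windows are chr5:90786009-90786078 (plus) for Cxcl3, chr5:90891155-90891224 (plus) for Cxcl1, chr5:90903783-90903852 (plus) for Cxcl2 and chr5:92348998-92349067 (minus) for Cxcl10.
Cxcl3: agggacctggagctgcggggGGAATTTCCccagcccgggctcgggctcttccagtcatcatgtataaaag
Cxcl1: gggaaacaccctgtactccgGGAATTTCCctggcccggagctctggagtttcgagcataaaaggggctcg
Cxcl2: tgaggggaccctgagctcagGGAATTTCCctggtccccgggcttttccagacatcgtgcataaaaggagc
Cxcl10: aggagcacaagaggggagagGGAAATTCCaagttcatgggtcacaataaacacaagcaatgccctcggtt
The matches began 72, 70, 96 and 158 bases before the start in Cxcl3, Cxcl1, Cxcl2 and Cxcl10. The letters AAANNGAAA, the core of an interferon-responsive element, did not overlap these matches and were found in Cxcl10 as AAAGTGAAA and in Cxcl14 as AAACAGAAA, beside 9.37% of all promoters. A match describes letters in a window and is not a measured binding site.

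Of 20351 cells in the matrix, 19488 passed the filters, with a median of 1949.5 UMIs and 853 genes, and 18170 of them (93.2%) were placed in 13 classes by counting raised marker genes. Each class name stands for cells that passed that marker gate, no CXC ligand or receptor was used in it, and 12 classes with at least 50 cells were ranked. Gates peaked in their own markers (12 of 12 in 7 classes, 7 to 11 in B cells, C1q-high macrophages, dendritic cells and monocytes). In the epithelial gate 6 of 12 did. Median depth ran from 922 UMIs in neutrophils and 1131 in NK cells to 5453 in alveolar macrophages, and only 140 stromal cells and 173 mast cells or basophils were gated. A reporter transcript was present in 93.7% of alveolar macrophages and 89.7% of epithelial cells, against 13.6% to 28.6% of the other ranked classes. Free RNA in droplets was read from B cells, which should lack macrophage, neutrophil and epithelial transcripts: there C1qa was at 28.0 CPM, Lyz2 at 254, S100a8 at 44.6 and Sftpc at 101.

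The 9 chemokines had different leading sources. C1q-high macrophages (2218 cells gated by complement C1q, Apoe, Ms4a7 and related genes) had the highest level of Cxcl1, Cxcl2, Cxcl10, Cxcl13 and Cxcl16. Alveolar macrophages, the resident macrophages of the airspace, led for Cxcl3 unless cells outside the epithelium with a reporter UMI were left out. Endothelial cells led for Cxcl12 and stromal cells for Cxcl14 and, through 1 cell, for Cxcl9. The highest class stood at least 2 times above the next for 3 of the 8 members that reached 50 CPM, namely Cxcl12, Cxcl13 and Cxcl14. Among all 5940 genes at that level, 1671 (28.1%) did so. The members' share was thus close to the background and is not read as a property of the family.

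**Figure D1:**
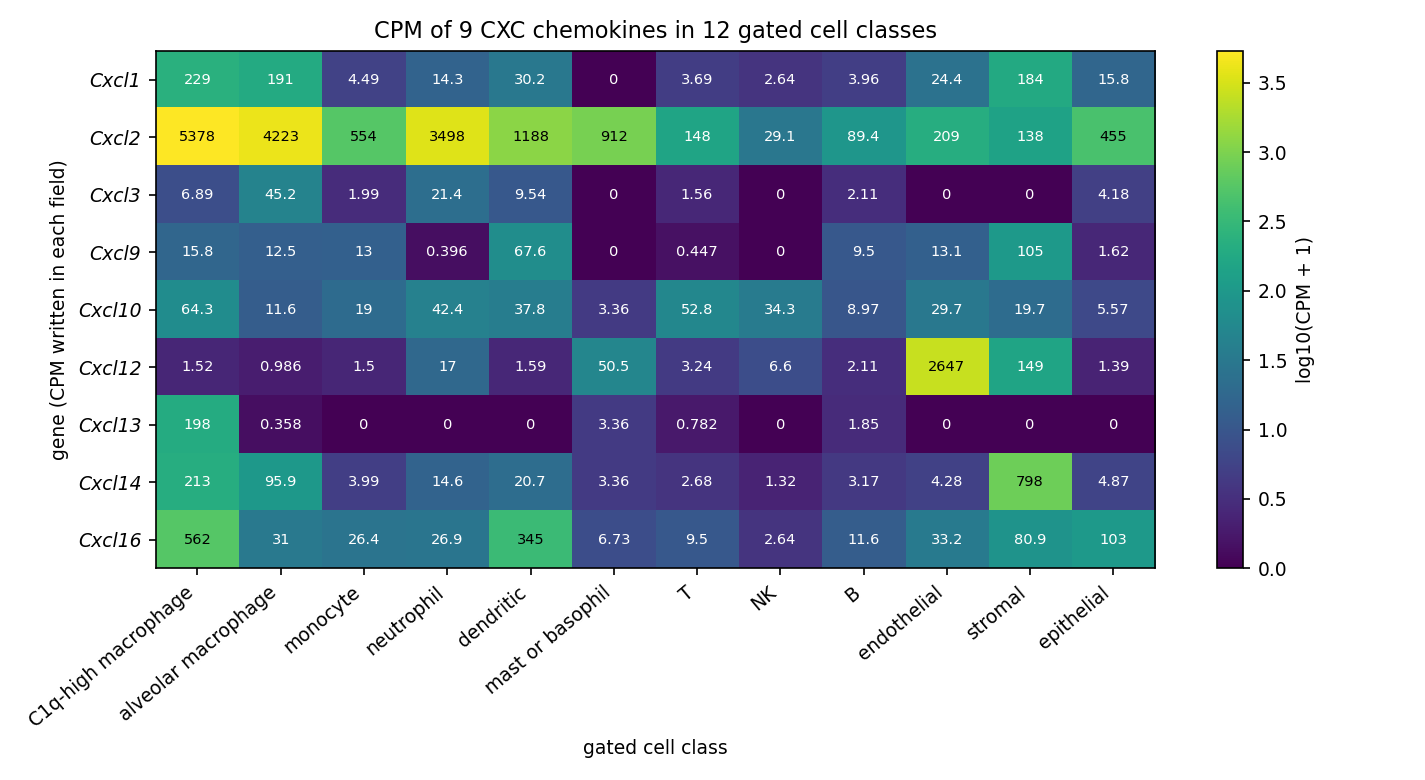
Level of each of the 9 chemokines (rows) in the 12 ranked cell classes (columns), with CPM written in each field and color on a log10(CPM + 1) scale. Cxcl2 is highest in C1q-high macrophages (5378 CPM), alveolar macrophages (4223) and neutrophils (3498). In monocytes it is at 554 CPM, near the 455 of the epithelial class. Cxcl12 stands out in endothelial cells at 2647 CPM and Cxcl13 in C1q-high macrophages at 198 CPM.

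Cxcl2 was the most counted member, with 121803 UMIs in 6129 cells (31.5% of cells kept). Its level was 5378 CPM (5332 to 5424) in C1q-high macrophages, 4223 (4185 to 4261) in alveolar macrophages and 3498 (3426 to 3572) in neutrophils. These neighbors differed beyond counting error, by 1.27-fold (1.26 to 1.29) and 1.21-fold (1.18 to 1.24). Dendritic cells followed at 1188 CPM, a 2.95-fold step below neutrophils, then mast cells or basophils at 912 and monocytes at 554. Both macrophage classes together held most of the transcripts, with 43.6% of all Cxcl2 UMIs in C1q-high and 38.7% in alveolar macrophages. Neutrophils, which are themselves the target of this ligand, held 7.25% of them, at a median of 922 UMIs of all genes per cell. Cells with at least 1000 UMIs were thinned to that number, which left out shallower cells and kept 2200 of 2218 C1q-high macrophages, 2022 of 2078 alveolar macrophages, 544 of 545 dendritic cells and 1820 of 2176 B cells. Only 805 of 1833 neutrophils remained. In these deeper cells 80.2% of C1q-high macrophages, 73.6% of alveolar macrophages, 62.2% of neutrophils and 26.7% of dendritic cells retained a Cxcl2 UMI, against 2.80% of B cells. Without thinning, the shares were 89.0% in C1q-high macrophages and 3.91% in B cells, at median depths of 4291.5 and 1379.5 UMIs.

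Outside the myeloid classes Cxcl2 was lower. B cells had 89.4 CPM (80.2 to 99.5), T cells 148, endothelial cells 209 and NK cells 29.1, and 55 of the 63 stromal UMIs came from 1 cell. The epithelial class had 455 CPM, but ATII cells, the surfactant-producing cells from which these tumors are thought to arise, had 54.1 CPM and ATI cells, the flat gas-exchange cells, 9.06. The epithelial level came from 185 gated cells that met neither the ATII nor the ATI gate, with 2185 CPM of Cxcl2. In the 148 epithelial cells with a Cxcl2 UMI, the C1q-high macrophage markers summed to 1675 CPM against 106 in the 902 without, and 11 of the 12 markers were higher and 1 was at 0. The median cell with Cxcl2 had 1254 CPM of these markers, and the median cell without had none. The reporter was at 1854 against 5509 CPM in the same cells. The part of mixed droplets in the epithelial value was not tested. In neutrophils with a Cxcl2 UMI, the macrophage markers summed to 577 CPM against 268 in those without. The median cell of both groups had none of these markers. Chil3, an alveolar macrophage marker, was at 1238 CPM in neutrophils, beside 202 in B cells, and whether neutrophils made it was not tested. The part of macrophage RNA in the neutrophil level was not tested.

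Cxcl1 was shared by macrophages and fibroblasts. Its level was 229 CPM (220 to 239) in C1q-high macrophages, 191 (183 to 199) in alveolar macrophages and 184 (147 to 227) in stromal cells. The first pair differed 1.20-fold (1.13 to 1.28), whereas alveolar macrophages and stromal cells could not be ordered (ratio 1.04, 0.835 to 1.31). Within the stroma, fibroblasts had 194 CPM. All other classes were at least 6.08-fold lower than stromal cells, from dendritic cells at 30.2 CPM down to NK cells at 2.64. Mast cells or basophils had no UMI, which allows up to 10.1 CPM. After thinning, 15.0% of C1q-high and 13.3% of alveolar macrophages and 10.7% of stromal cells had a Cxcl1 UMI, beside 0.0549% of B cells. In endothelial cells (24.4 CPM) the 34 cells with Cxcl1 also had alveolar macrophage markers at 5864 CPM against 310 in the others, with 7 of the 12 higher and 5 at 0. The median of the 34 cells was 0 CPM and the highest 30463, so the sum came from a minority of them. Whether mixed droplets account for the endothelial level was not tested.

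Cxcl3 differed from its neighbors in the gene row by its source. Alveolar macrophages had 45.2 CPM (41.3 to 49.3) and held 70.8% of its 712 UMIs, and neutrophils were next at 21.4 (16.1 to 27.9), a ratio of 2.11 (1.59 to 2.85). The lead was not kept without the cells outside the epithelium that had a TdTomato UMI, which the study left out. The 130 alveolar macrophages that remained had 11.5 CPM, from 7 UMIs in 6 cells, and neutrophils 19.4. Those 7 UMIs were too few to order these classes. C1q-high macrophages, the leading class for both other genes, had only 6.89 CPM, and 16 of their 68 UMIs lay in 1 cell. Dendritic cells had 9.54 CPM, with 31.8 (19.2 to 49.7) in mature dendritic cells, the Ccr7-positive state that migrates to lymph nodes. Among 1876 endothelial cells no Cxcl3 UMI was found, which allows up to 0.755 CPM. The plot of the 3 genes by class shows Cxcl1 and Cxcl2 leading in both macrophage classes and Cxcl3 in alveolar macrophages and neutrophils.

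**Figure D2:**
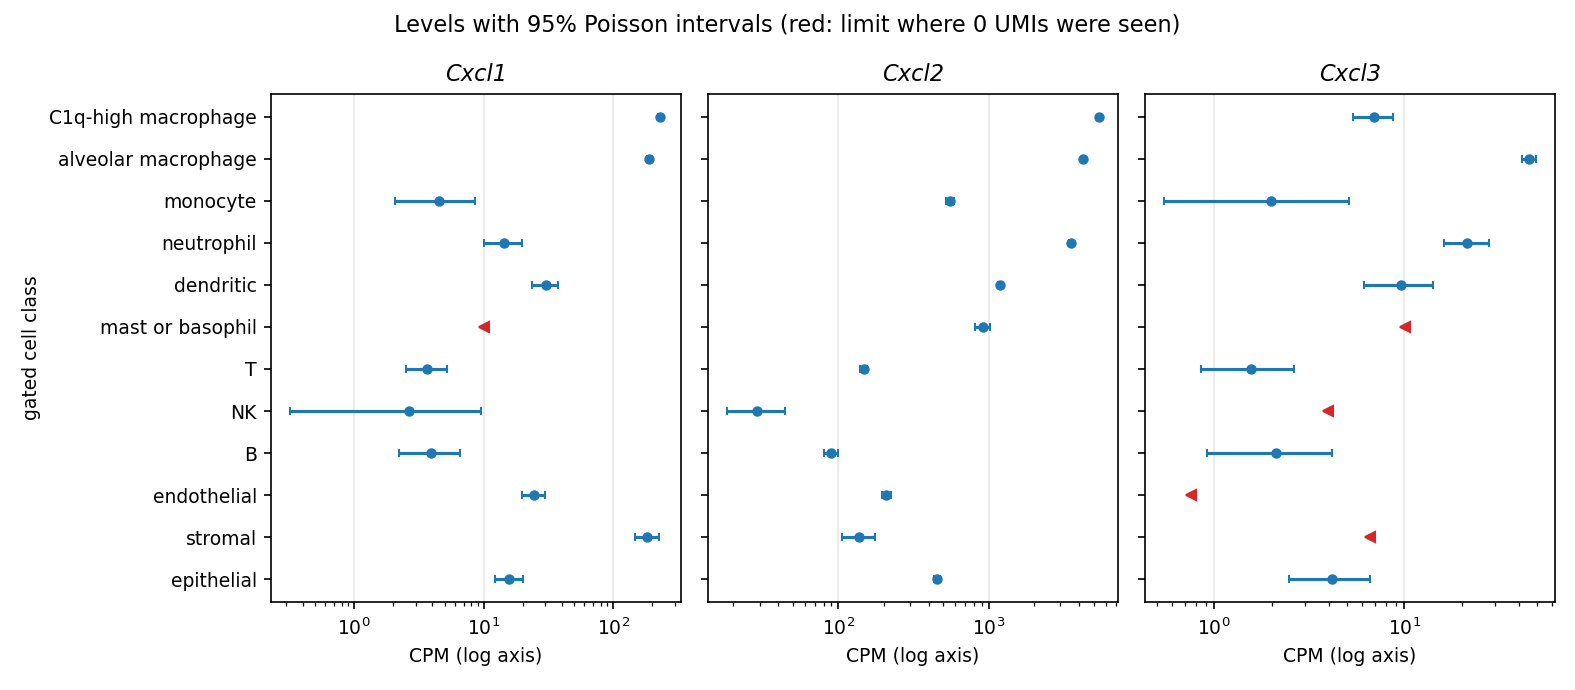
Cxcl1, Cxcl2 and Cxcl3 in the 12 ranked classes, in CPM on log axes that differ between panels; points are levels, bars are exact Poisson 95% intervals and red triangles are the limits allowed where no UMI was seen. C1q-high macrophages are highest for Cxcl1 (229 CPM) and Cxcl2 (5378 CPM), and alveolar macrophages for Cxcl3 (45.2 CPM).

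Cells with one of these ligands usually had Cxcl2 as well. Of 1485 cells with Cxcl1, 1370 (92.3%) had Cxcl2, which was 22.4% of the 6129 Cxcl2 cells. For Cxcl3 the count was 258 of 279 (92.5%). Within C1q-high macrophages, 655 of 658 Cxcl1 cells (99.5%) had Cxcl2, beside 89.0% of the whole class, and in alveolar macrophages 610 of 625 (97.6%) beside 81.7%. Both macrophage classes thus had Cxcl2 in most cells in any case, and the excess within them was smaller than that over all cells.

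The same cells had more of the NF-kB response list, which comprised Nfkbia, Nfkbiz, Tnfaip3, Nfkb1, Icam1, Tnf, Il1b, Ccl3, Ccl4 and Ptgs2. In alveolar macrophages with a Cxcl2 UMI (1697 cells) the list summed to 3094 CPM against 1066 in the 381 cells without, a 2.90-fold difference. At a ratio of at least 1.5, 9 of the 10 genes were higher, beside 8.15% of 10268 genes measured in that class. For Cxcl1 in alveolar macrophages (625 with, 1453 without) the list was at 3811 against 2271 CPM (1.68-fold) and 7 of 10 genes passed, beside 2.82% of all. For Cxcl3 (190 with, 1888 without) it was 4547 against 2566 CPM (1.77-fold) and 6 of 10 passed, beside 7.58%. The cells with Cxcl3 had more of the cytokines Tnf (368 against 127 CPM) and Il1a (262 against 102), of Cxcl1 (398 against 169) and of Cxcl2 (7142 against 3923).

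C1q-high macrophages showed the same pairing at smaller ratios. With a Cxcl2 UMI (1973 cells against 245) the NF-kB list was at 6671 against 3540 CPM (1.88-fold) and 8 of 10 genes passed, beside 14.5% of 10347 genes. Other lists differed in this split too, so it was not particular to NF-kB genes. Of 8 cell cycle genes, 7 passed upward and 1 downward. Of the interferon-gamma list 6 of 9 genes passed downward, and of the type I list 4 of 7, beside 11.1% of all. In each of these 2 lists 1 gene passed upward. With a Cxcl1 UMI (658 against 1560) the NF-kB list was at 7725 against 5807 CPM (1.33-fold) and 6 of 10 passed, beside 4.1%. In neutrophils with Cxcl2 (1174 against 659) the ratio was 1.38 and 7 of 10 genes passed, beside 17.1% of 7087 genes. The early stress list, immediate-early and heat-shock genes that also respond to tissue dissociation at 37 °C, moved with Cxcl2 in alveolar macrophages (1.84-fold, 8 of 12 genes). The part of dissociation in these levels was not tested.

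Cxcl9 was rare and concentrated in single cells: 644 UMIs in 141 cells (0.724% of cells kept), with 130 UMIs (20.2%) in 1 cell and 58.2% in the top 10. Stromal cells had the highest level, 105 CPM, but 46 of their 48 UMIs were in 1 fibroblast, and without it the level was 4.44. Dendritic cells had 67.6 CPM, and 130 of their 170 UMIs were in 1 cell of the cDC1 gate, the cross-presenting subset, leaving 15.9 CPM. The single cell also set the cDC1 level, which was 288 CPM with it and 26.6 without. C1q-high macrophages followed at 15.8 CPM, endothelial cells at 13.1 (41 of 52 UMIs in 1 cell) and alveolar macrophages at 12.5. Monocytes lay between these, with 18 of 26 UMIs in 1 cell. All 36 UMIs of the B cell class came from 1 cell. Neutrophils, at 0.396 CPM, had almost none, although their Cxcl10 was among the higher levels. By number of UMIs, dendritic cells held 26.4%, C1q-high macrophages 24.2% and alveolar macrophages 21.6%.

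**Figure D3:**
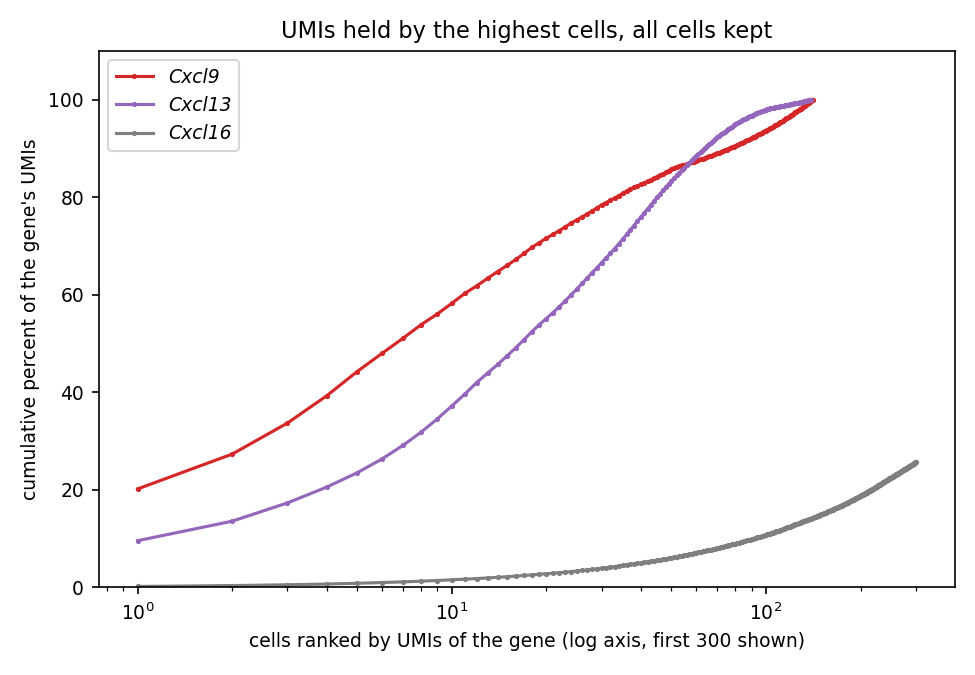
Cumulative percent of a gene's UMIs (y axis) held by its highest cells, ranked by UMIs (x axis, log scale, first 300 cells), for Cxcl9, Cxcl13 and Cxcl16. The top 10 cells held 58.2% of Cxcl9, 37.2% of Cxcl13 and 1.56% of Cxcl16.

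Cxcl10 was spread over many classes. C1q-high macrophages had 64.3 CPM (59.4 to 69.5) and T cells 52.8 (48.2 to 57.8), a ratio of 1.22 (1.08 to 1.37). In cells thinned to 1000 UMIs this lead was lost, with 80.7 CPM in neutrophils and 78.6 in C1q-high macrophages. That neutrophil value included 1 cell that had 40 Cxcl10 UMIs among 1045 UMIs before thinning. Without this cell the unthinned neutrophil level was 26.5 CPM. Of all 1783 Cxcl10 UMIs, C1q-high macrophages held 35.6% and T cells 26.5%. Neutrophils had 42.4 CPM, with 40 of 107 UMIs in 1 cell, dendritic cells 37.8, NK cells 34.3 and endothelial cells 29.7. Stromal cells (19.7), monocytes (19.0), alveolar macrophages (11.6) and B cells (8.97) were lower, and ATII cells had 0.656 CPM. Within T cells, the regulatory T gate had 71.7 CPM in 68 cells, the CD4 gate 44.3 and the CD8 gate 31.8. The T cells with Cxcl10 (228 cells) had B cell markers at 1820 against 84.0 CPM, with 6 of the 12 higher and 5 at 0. The median of these cells was 0 CPM and the highest 113985, so the B cell sum came from a minority of them. Cell cycle genes were at 623 against 162 CPM. The part of mixed droplets in the T cell level was not tested.

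Macrophages with Cxcl9 had more interferon-response transcripts. In C1q-high macrophages with Cxcl9 (38 cells against 2180) the interferon-gamma list was at 664 against 162 CPM, a 4.09-fold difference (3.42 to 4.86). All 9 list genes that were measured passed a ratio of 1.5, beside 18.1% of all genes. Among them were the guanylate-binding protein Gbp2 (55.7 against 3.52), the immunity-related GTPase Iigp1 (65.0 against 0.621) and Cd274, which encodes PD-L1 (83.6 against 20.6). Cxcl10 was also higher in them, at 214 against 61.0 CPM. In alveolar macrophages with Cxcl9 (61 against 2017) the interferon-gamma list was at 428 against 226 CPM (1.89-fold), with 6 of 7 genes past the ratio beside 13.6% of all. The type I interferon list was at 78.3 against 9.35 CPM in them, although only 2 of its genes had 20 UMIs in that class.

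For Cxcl10 several lists were higher, in more than one class. In C1q-high macrophages (216 with, 2002 without) the type I interferon list was at 130 against 32.3 CPM, 4.04-fold, and 7 of 7 measured genes passed, beside 7.83% of all. Examples were the ubiquitin-like Isg15 (53.3 against 14.4 CPM) and the antiviral Ifit1 (11.4 against 1.93). The interferon-gamma list was at 237 against 166 CPM, with 5 of 9 genes past the ratio, and cell cycle genes were at 221 against 87.2 CPM. In endothelial cells (38 with, 1838 without) both interferon lists were higher: interferon-gamma 1394 against 565 CPM and type I 606 against 219, with 9 of 9 and 7 of 7 genes past the ratio, beside 18.5%. The NF-kB list was there at 2796 against 1569 CPM, with 6 of 10 genes. In dendritic cells (35 with, 510 without) the type I list was at 693 against 67.0 CPM and 5 of 5 passed, beside 16.5%. In alveolar macrophages (44 with, 2034 without) the NF-kB list was at 5647 against 2690 CPM with 8 of 10 genes, beside 18.1%. Cell cycle genes were at 305 against 79.7 CPM in them (7 of 8 genes), the interferon-gamma list at 357 against 230 (3 of 7), and the type I ratio was 0.749 (0.0897 to 2.76). The difference between classes in these ratios was not tested.

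**Figure D4:**
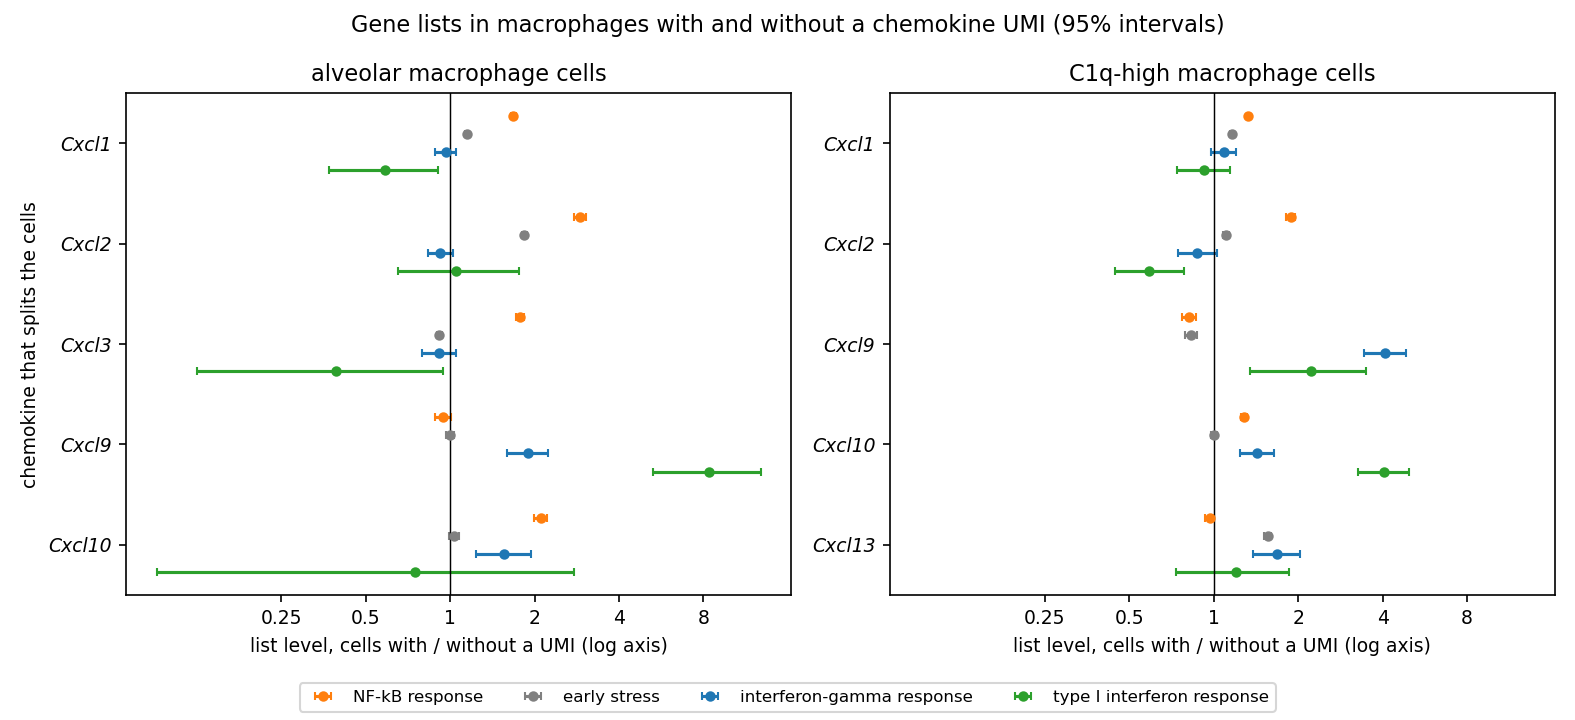
Ratio (log axis) of the summed CPM of 4 gene lists in cells with against cells without a UMI of the chemokine on the y axis, in alveolar macrophages (left) and C1q-high macrophages (right); bars are exact conditional 95% intervals. NF-kB genes are higher with Cxcl1 and Cxcl2 on both sides, and interferon-gamma genes reach a ratio of 4.09 with Cxcl9 in C1q-high macrophages.

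Both ligands were found together in few cells. Of 141 cells with Cxcl9 and 696 with Cxcl10, 35 had both, which was 24.8% of the first and 5.03% of the second, beside Cxcl10 in 3.57% of all cells. In C1q-high macrophages 11 cells had both, 28.9% of the 38 with Cxcl9 and 5.09% of the 216 with Cxcl10. The counts were 8 cells in the dendritic class and 3 in alveolar macrophages.

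Cxcl12 was an endothelial transcript in these tumors. Endothelial cells had 2647 CPM (2596 to 2698) and held 97.2% of its 10820 UMIs, and stromal cells, the next class, had 149 (115 to 188), a ratio of 17.8 (14.0 to 22.9). Mast cells or basophils had 50.5 CPM, neutrophils 17.0 with 22 of 43 UMIs in 1 cell, and NK cells 6.60. The other classes were at 3.24 CPM or lower. After thinning to 1000 UMIs, 64.8% of endothelial cells had a UMI (73.0% without thinning), against 12.4% of stromal cells and 0.165% of B cells. Fibroblasts, a classical source of Cxcl12 in other tissues, had 150 CPM.

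The vessel bed was not uniform. General capillary cells, gated on Gpihbp1, Plvap, Aplnr and related genes, had 2727 CPM, whereas aerocyte-like cells, gated on Car4, Ednrb and other markers of the gas-exchange capillary cell, had 211 (149 to 289). The ratio was 12.9 (9.42 to 18.3). Larger-vessel cells had 1772 CPM in 28 cells, lymphatic cells 47.1 in 19, and endothelial cells outside these gates 3355. Cells with a Cxcl12 UMI had more of the arterial genes Gja4 (391 against 92.2 CPM) and Sema3g (124 against 27.7). Aerocyte-like cells had more Cxcl16 than general capillary cells, at 105 against 26.5 CPM, a ratio of general to aerocyte-like of 0.251 (0.151 to 0.438).

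Cxcl13 was restricted to a small set of macrophages. C1q-high macrophages had 198 CPM (189 to 207) and held 98.9% of its 1974 UMIs, yet only 120 of 2218 cells (5.41%) had one. The top cell held 189 UMIs, 17 cells held 50.8% of all UMIs, and the class was at 179 CPM without the top cell. Alveolar macrophages had 0.358 CPM, B cells 1.85, T cells 0.782 and mast cells or basophils 3.36 from 1 UMI. In the other 7 ranked classes no UMI was found. The limits ran from 0.696 CPM in epithelial and 0.755 in endothelial cells, through 1.19 in dendritic cells and neutrophils, to 3.96 in NK and 6.56 in stromal cells. CD4 T cells, which include a follicular helper state known for Cxcl13 in human tissue, had 4 UMIs (3.41 CPM).

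The Cxcl13 cells differed from the other C1q-high macrophages in many genes. They were led by Ccl8, a monocyte-attracting chemokine (2324 against 68.7 CPM), the complement component C4b (342 against 12.2), the folate receptor Folr2 (221 against 5.29), the carbonyl reductase Cbr2 (187 against 8.46) and F13a1 (242 against 14.0), and they had more of the adhesion molecule Vcam1 (381 against 28.3). Folr2, Cbr2 and F13a1 are known in resident tissue macrophages, and F13a1 was also among the 12 markers of the monocyte gate. Cell cycle genes were lower, at 26.7 against 105 CPM, and 8 of the 8 passed a ratio of 1.5 downward, beside 26.8% of genes. Their median ratio was 0, so most of the 8 passed because no UMI was found in the 120 cells. The interferon-gamma list was at 284 against 168 CPM (1.68-fold), with 5 of 9 genes upward and 2 downward, beside 18.2% upward of all. Among the members, Cxcl9 (67.9 against 13.5) and Cxcl10 (177 against 59.4) were higher, Cxcl2 was at 4595 against 5412, and Cxcl14 was lower at 102 against 218 CPM. In counts of cells, 32 of the 120 (26.7%) had Cxcl14, beside 47.2% of the class. Cxcl10 was in 13 of the 120 (10.8%), close to the 9.74% of the class. Cxcl9 was in only 4 of the 120 (3.33%), beside 1.71% of the class. The early stress list was 1.56-fold higher in the Cxcl13 cells, and their median depth was 3317.5 against 4345 UMIs; the part of either in these differences was not tested.

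Cxcl14 had its highest level in fibroblasts, whereas most of its captured UMIs were in macrophages. Stromal cells had 798 CPM (718 to 884), fibroblasts 827 (743 to 917), C1q-high macrophages 213 (204 to 223) and alveolar macrophages 95.9 (90.2 to 102). The steps were 3.74-fold (3.34 to 4.18) from stromal to C1q-high cells and 2.23-fold (2.07 to 2.40) on to alveolar macrophages. The 140 stromal cells held 9.70% of the UMIs, C1q-high macrophages 56.0% and alveolar macrophages 28.4%. A single stromal cell held 45 of their 365 UMIs. Among dendritic cells the cDC2 gate, the subset that primes helper T cells, had 48.3 CPM. Neutrophils had 14.6 CPM and the remaining classes 4.87 or less. After thinning, 30.6% of stromal cells, 17.1% of C1q-high and 9.05% of alveolar macrophages had a UMI, and none of the 1820 B cells that were deep enough.

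**Figure D5:**
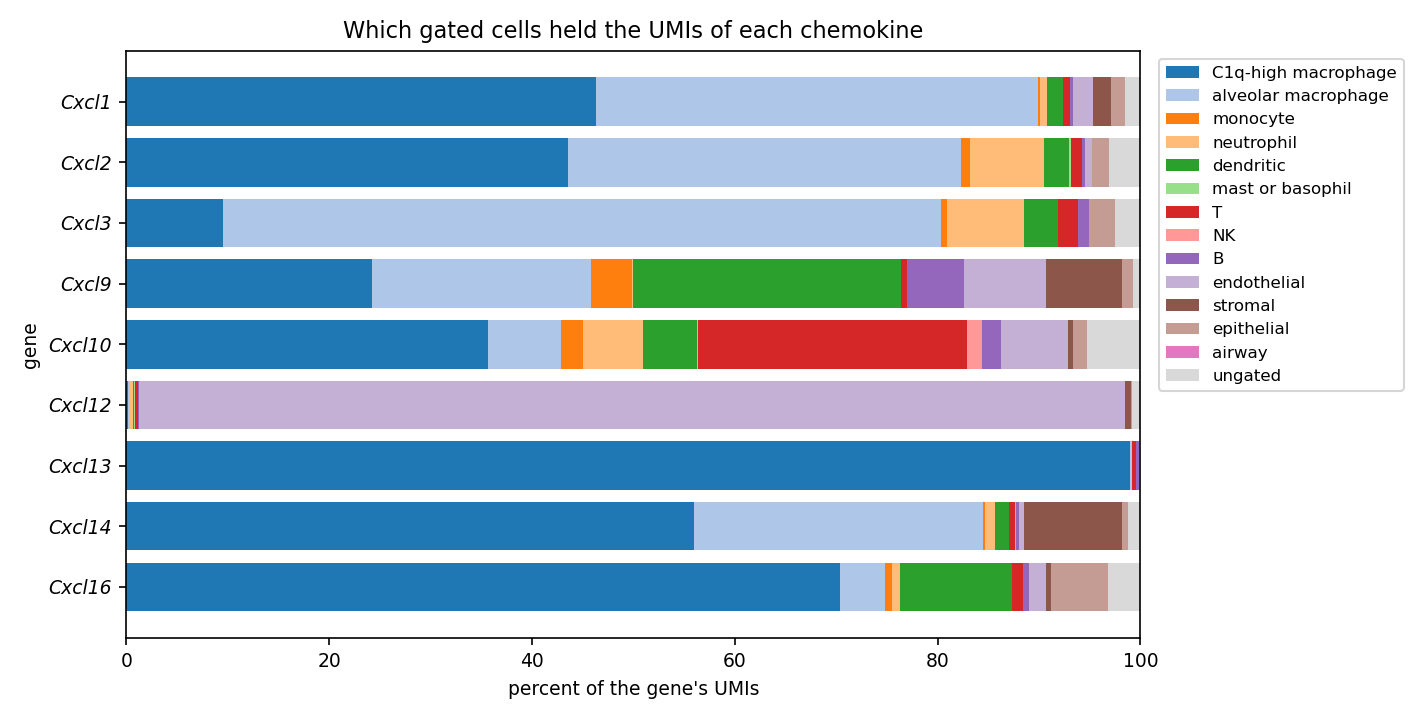
Percent of each chemokine's UMIs (x axis) held by each gated class (colors) and by ungated cells (grey), over all cells kept. Endothelial cells hold 97.2% of Cxcl12 and C1q-high macrophages 98.9% of Cxcl13, whereas Cxcl9 and Cxcl10 are divided over many classes.

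Cxcl16 was led by C1q-high macrophages and mature dendritic cells. C1q-high macrophages had 562 CPM (547 to 577) and 70.4% of its 7885 UMIs, and dendritic cells 345 (323 to 369) and 11.0%, a ratio of 1.63 (1.51 to 1.75). Within dendritic cells the mature gate had 660 CPM (597 to 729), which was 1.17-fold (1.06 to 1.30) the level of C1q-high macrophages. cDC2 had 311 CPM, cDC1 234 and plasmacytoid dendritic cells 7.23. Alveolar macrophages, at 31.0 CPM, had far less than the C1q-high class, unlike for Cxcl1 and Cxcl2. After thinning, 40.3% of C1q-high macrophages and 24.4% of dendritic cells had a UMI, but only 2.62% of alveolar macrophages and 0.549% of B cells. The dendritic cells with Cxcl16 had more Ccl22, which attracts regulatory T cells (765 against 104 CPM). Ccl22 is also one of the genes of the mature gate.

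Cxcl16 was also found in epithelial cells. The epithelial class had 103 CPM, ATI cells 149 (116 to 190) and ATII cells 48.6 (41.0 to 57.0), a ratio of 3.08 (2.27 to 4.14). The other 185 cells of the epithelial class, which met neither gate and had high Ccl17, held 228 of the 442 epithelial UMIs, at 278 CPM. In the 270 epithelial cells with a Cxcl16 UMI the C1q-high macrophage markers summed to 910 CPM against 146 in the 780 without, with 11 of the 12 higher and 1 at 0, although the median cell of both groups had none. The part of mixed droplets in the epithelial level was not tested. ATI and ATII cells were above the B cell level of 11.6 CPM, by 12.5-fold (8.41 to 18.7) and 4.06-fold (2.88 to 5.82). For Cxcl1, by contrast, ATII cells had 17.1 CPM and ATI cells 4.53.

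In alveolar macrophages, levels differed with the reporter transcript. A TdTomato UMI does not by itself show that a cell was recombined. The 1948 cells with a TdTomato UMI had 47.1 CPM of Cxcl3 against 11.5 in the 130 without, a ratio of 4.09 (1.97 to 10.2). Cxcl14 (98.1 against 57.6), Cxcl1 (194 against 140) and Cxcl2 (4281 against 3220) were also higher with it. Cxcl16 went the other way, at 27.2 against 97.1 CPM. Cxcl9 (6.06 against 123) and Cxcl10 (9.10 against 54.3) were lower with the reporter, but without the top cell of the reporter-negative group the second values were 71.6 and 9.96. In C1q-high macrophages Cxcl3 was at 14.9 CPM in the 599 cells with a TdTomato UMI and 3.79 in the 1619 without. The mice that gave each group of cells were not known.

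The receptors marked the cells these ligands can reach. Cxcr2, the receptor of Cxcl1, Cxcl2 and Cxcl3, was at 1243 CPM (1200 to 1287) in neutrophils, which held 88.8% of it. Cxcr1 was instead found in alveolar macrophages (45.3 CPM, 92.0% of UMIs), beside 7.13 in neutrophils. Cxcr3, the receptor of Cxcl9 and Cxcl10, was at 30.5 CPM in T cells (64.1%) and 79.5 in plasmacytoid dendritic cells. Cxcr4, the receptor of Cxcl12, was at 262 CPM in neutrophils, 130 in B cells and 107 in NK cells, and the scavenger Ackr3 was at 214 CPM in endothelial cells (91.5%), the class that held the ligand. Cxcr5, the receptor of Cxcl13, was at 93.4 CPM in B cells (86.6%) and 3.41 in CD4 T cells. Cxcr6, the receptor of Cxcl16, was at 137 CPM in T cells (83.0%) and 478 in gamma-delta T cells. Among the ranked classes, receptor and ligand messages thus peaked in different classes for every pair named here except Cxcl12 with Ackr3. Neutrophils had both Cxcl2 and Cxcr2. T cells, with most of the Cxcr3, were also next for Cxcl10, at 52.8 CPM against 64.3 in C1q-high macrophages. The regulatory T gate (71.7 CPM) could not be ordered against those macrophages for Cxcl10 (ratio 1.11, 0.633 to 1.82). The stromal peak of Cxcl9 came from 1 cell. Without the top cell of each class dendritic cells led, at 15.9 CPM. Plasmacytoid dendritic cells, which had Cxcr3, had no Cxcl9 UMI.

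Other ligands of the family were read from a fixed list. Pf4 was at 202 CPM in C1q-high macrophages (86.5% of its UMIs), and Cxcl15, a lung-specific chemokine, was at 5566 CPM in ATII cells, with 97.3% of its UMIs in the epithelial class. Cxcl17 reached 936 CPM in the 15 airway cells and 26.6 in ATII cells. Cxcl5, another Cxcr2 ligand known from lung epithelium, had 8 UMIs in all cells, and Ppbp was at 0.912 CPM or lower in every ranked class. The lymphotactin Xcl1 was at 572 CPM in NK cells. Cxcl11 was not analysed here.

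The genes most like each member were ranked by Pearson's r of log2(CPM + 10) over 17 classes among 6375 genes, as a description only, since the classes share libraries and depth. Cxcl12 was closest to the water channel Aqp1 (0.982), Msx1 (0.978) and the junction protein Jam2 (0.977), all endothelial-high. Cxcl13 was closest to the chemokines Ccl12 (0.986) and Ccl8 (0.940) and to Ms4a7 (0.878), and Cxcl14 to the growth factor Igf1 (0.947), Ccdc80 (0.942) and Gstm5 (0.918). Cxcl2 was closest to Ccrl2 (0.925), Slc15a3 (0.910) and Clec4n (0.909), and Cxcl1 to Lhfpl2 (0.908), Axl (0.883) and St7 (0.852). For Cxcl3 they were Prkar2b (0.887), Sgpl1 (0.861) and the interleukin-1 receptor antagonist Il1rn (0.827), and for Cxcl16 Flrt3 (0.908), Mfge8 (0.905) and Arhgef40 (0.884). Cxcl10 had the loosest neighbors, Gadd45b (0.831), Rbpj (0.766) and Twf2 (0.766). Those of Cxcl9, Slc39a14 (0.859), Timp1 (0.848) and Dkk2 (0.842), follow the level that 1 stromal cell gave it.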

How the data were processed

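The authors sequenced sorted viable lung tumor cells with 10x Genomics 3′ v3 chemistry, and made UMI counts per gene and cell with Cell Ranger 3.0.2 against mm10 with GFP and TdTomato added. The deposited matrix held these counts as they were, without normalization, pooled over 4 mice. It had 58624795 UMIs in 20351 cells, with at least 500 per cell. Cells with at least 200 genes and at or below the 98th percentile of genes (2713) and of mitochondrial share (13.4%) were kept. A marker was raised in a cell when its CPM exceeded its CPM over all cells kept. A cell took the class with the most raised of 12 markers (at least 3, and more than any other), and 1318 cells stayed ungated. UMIs were summed per class. No doublets were removed in the main values. UMIs of 3′ tags were not divided by gene length.

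The 9 members, markers and gene lists were chosen with earlier results of these data known. All 9 members were named, with the genes of the fixed pathway and program lists and the 3 genes most alike by Pearson's r (classes of at least 100 cells, genes at 50 CPM or more in some class). Other genes named in cells with a chemokine UMI were chosen after their values were seen. A ratio between cells with and without a chemokine used genes with 20 UMIs or more in the class. Calculations were checked on simulated counts with known levels. Some items are not reported here. Alternatives are given in the closing section. Used were Python 3.11.15, numpy 2.4.6, scipy 1.17.1, pandas 2.3.3, scanpy 1.11.5 and matplotlib 3.10.9.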

Additional observations from a re-analysis of the deposited data

How the results depend on the processing

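Over 9 settings, 56 of 81 recomputed top-class levels fell inside the Poisson interval of the main level, and 77 of 81 kept the same highest class. For 6 of the 9 genes that class was the same in all 9 settings. A minimum of 500 genes and a gate of 4 markers moved no level. Without upper cut-offs Cxcl12 was at 2442 and Cxcl14 at 934 CPM. With 95th percentile cut-offs Cxcl2 was at 5448, Cxcl12 at 2719 and Cxcl13 at 216. With each of 28 clusters given 1 class (95.5% of gated cells the same), C1q-high macrophages had Cxcl1 at 195, Cxcl2 at 5029.9, Cxcl10 at 58.9, Cxcl13 at 166 and Cxcl16 at 530.5. Scrublet called 181 of 20299 cells (0.892%) at an expected rate of 6%, and without the 141 among the cells kept Cxcl12 was at 2737. A further setting dropped cells outside the epithelium that had a TdTomato UMI, which the study left out. Cxcl3 then fell to 11.5 (7 UMIs) in the 130 alveolar macrophages left, beside 19.4 in neutrophils. Those 7 UMIs were too few to order these classes. There stromal Cxcl9 was at 146, Cxcl12 at 2997, Cxcl13 at 179 and Cxcl14 at 665. Among cells of at least 1000 UMIs, thinned to 1000, Cxcl1 was at 243, Cxcl12 at 3067, Cxcl13 at 260.0 and Cxcl14 at 562. Stromal Cxcl9 was then at 57.9, below dendritic cells at 64.3, and Cxcl10 in C1q-high macrophages at 78.6, below neutrophils at 80.7. The neutrophil value included 1 cell that had 40 Cxcl10 UMIs before thinning. Without the cell with the most UMIs, a setting added after seeing the data, stromal Cxcl9 was at 4.44, below dendritic cells at 15.9, Cxcl13 at 179 and Cxcl14 at 707. With a floor of 100 CPM, 1100 of 3460 genes (31.8%) stood at least 2 times above the next class, against 1671 of 5940 (28.1%) at 50 CPM. At 20 CPM it was 26.1% of 9555 genes and 4 of 9 members, Cxcl3 included. Shares of cells with a UMI moved with the thinning depth in 20 of 27 values. The causes were not tested. No paired analysis was possible because the matrix does not tie cells to mice. The same limit leaves every level without replicate error, and depth limits classes of few cells and members of few UMIs, above all Cxcl3 and Cxcl9.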
